A study of Saccharomyces cerevisiae with 6 samples.

Results

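Open reading frames (ORFs) at the outer ends of the budding yeast chromosomes were compared between a strain whose histone H4 carries histidine in place of arginine at residue 45 (H4R45H) and the wild-type strain WY139. Systematic ORF names give the chromosome, the arm and a number that grows toward the chromosome end, so the 10 highest-numbered ORFs on the array were taken for each of the 32 arms. From these 320 ORFs the large families and single genes described separately were left out (COS, PAU, HXT, AAD, FLO, MAL, IMA, THI, SNO, SNZ, BIO, PHO, DAL, MPH, ADH and FIT symbols, and JLP1, MMP1 and SUL1). That removed 58 ORFs and kept 262 of the 5449 genes measured, 119 in places 1 to 5 and 143 in places 6 to 10, where place 1 is the outermost ORF on the array. An arm kept between 3 and 10 of them. A gene name was given to 183, and 79 were known by systematic name only.

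Total RNA of 3 H4R45H and 3 wild-type samples was hybridised to one-colour Affymetrix arrays, one array per sample. Cells of both strains grew in YPD, a rich glucose medium, and were harvested in mid-log phase at an optical density of 0.5 to 0.7. Whether the substituted histone was the only source of H4 in the cells, and how the allele was carried, is not stated in the labels used here. The labels do not say whether the replicates were grown as separate cultures, and the p-values therefore reflect array-to-array spread that may be purely technical. The comparison asked which transcripts depend on this residue in the folded core of H4.

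Chromatin near yeast telomeres is less permissive for transcription than chromatin elsewhere. Rap1 and the Ku complex bind at the chromosome end and recruit the Sir proteins, of which Sir2 deacetylates the H4 tail while Sir3 and Sir4 bind nucleosomes, and further in the deacetylase Hda1 and the corepressor Tup1 act on many genes. Subtelomeric regions are rich in genes used outside rapid growth on glucose, among them transporters, enzymes of unusual substrates and detoxification proteins, and in short ORFs of unknown function. Arginine 45 of H4 lies where the histone meets the minor groove of the DNA, and its replacement is known as a Sin mutation, one that lessens the need for the SWI/SNF remodelling complex.

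Values are Affymetrix signals in arbitrary units. The limma fit covered all 5716 probe sets, and a difference counted as called when its adjusted p was below 0.05. Rose and fell are used of called genes, and differences are H4R45H minus wild type on the log2 scale. Some probe sets are shared, meaning that their probes match more than 1 transcript. The mean signal per array was 276.8 to 279.9 for H4R45H and 284.4 to 287.4 for wild type. The median signal was 158.6 to 163.3 for H4R45H and 148.4 to 151.4 for wild type. The number of arrays limits the precision. In RNA from whole cultures, a change in the share of expressing cells and a change in RNA per cell cannot be told apart. All 262 ORFs were tested, since no filter on low signals was used.

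The outermost ORFs were mostly higher in H4R45H. Of the 262, 164 rose, 42 fell and 56 did not pass, so 62.6% rose and 16.03% fell. Among all genes 66.2% were called, with 37.1% higher and 29.1% lower. Their median difference was 0.46 with quartiles of 0.03 and 1.12, beside a median of 0.05 over all genes. The rises were larger than the falls. At a minimum of 2-fold, 78 rose and 0 fell, against 8.88% and 0.385% of all genes, and at a minimum of 1.5-fold 116 rose and 11 fell, against 18% and 4.29%. All 3 H4R45H arrays lay above all 3 wild-type arrays for 173 of the ORFs and below them for 44, and over all genes these shares were 39.8% and 31.6%.

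The same direction was seen array by array. The median signal of the 262 ORFs was 109.9, 109.7 and 110.8 on the H4R45H arrays, against 75.3, 76.8 and 81.45 on the wild-type arrays. Their summed signal made up 3.44%, 3.48% and 3.6% of the total for named genes on the H4R45H arrays, against 2.93%, 2.94% and 2.92% on the wild-type arrays. The strains did not overlap in either measure. The size depended on the scaling. After quantile normalization, which moved the median of all genes to -0.07, the median of the ORFs was 0.19 with 126 higher and 62 lower (67.0% of the called ones higher, against 79.6% on the deposited scale), where 26.9% of all genes were higher and 36.8% lower. After cyclic loess 135 ORFs were higher and 47 lower, where 30.7% and 30.4% of all genes were, and after median centring 151 were higher and 51 lower, where 30.3% and 38.6% of all genes were. With the call required on the deposited scale and under these 3 normalizations, 117 were called higher and 32 lower, that is 44.7% of the ORFs higher, while 22.9% of all genes were called higher and 22.3% lower in this way.

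Places 1 to 5 were set against places 6 to 10. In places 1 to 5, 82 of 119 ORFs rose and 13 fell, with a median of 0.65. In places 6 to 10, 82 of 143 rose and 29 fell, with a median of 0.36. At 2-fold or more, 47 ORFs rose in places 1 to 5 and 31 in places 6 to 10, which is 39.5% and 21.7% of each class. The difference between both medians was 0.28. It was 0.072 when a pseudocount of 50 was added to the signals and 0.14 without the dimmest 25% of probe sets, so its size depended on how dim ORFs were treated. No p is given for it, because ORFs are not replicates of a condition.

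**Figure D1:**
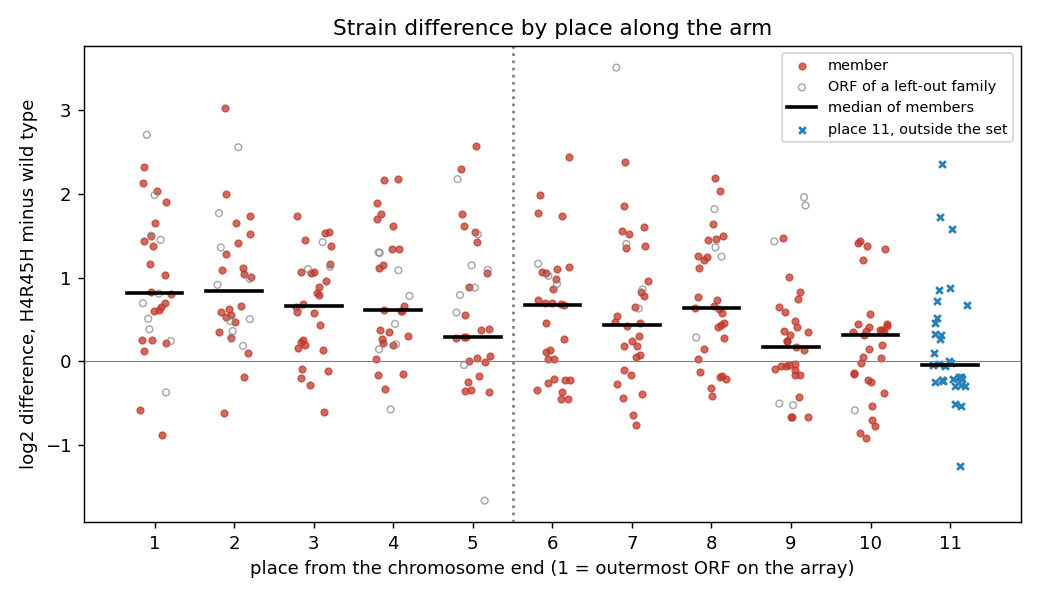
Log2 difference between strains (vertical axis) of each ORF by its place from the chromosome end (horizontal axis, 1 is the outermost ORF on the array), with members as filled points, ORFs of left-out families as open circles, place 11 as crosses and the medians as black bars. On the deposited scale the median is 0.81 at place 1 and 0.84 at place 2, 0.32 at place 10 and -0.04 at place 11.

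The fall-off along the arm was not even. The median was 0.81 at place 1, 0.84 at place 2, 0.66 at place 3, 0.61 at place 4 and 0.30 at place 5, then 0.68, 0.44, 0.63, 0.17 and 0.32 at places 6 to 10, with 22 to 31 ORFs at each. Just inside the limit, at place 10, 16 of 31 ORFs rose and 8 fell. Just outside it, at place 11, 12 of 32 rose and 13 fell, with a median of -0.04. The step between places 10 and 11 depended on the scaling. After quantile normalization place 10 had 11 higher and 12 lower (median -0.066), and place 11 had 10 higher and 10 lower (median -0.05). After cyclic loess the medians were 0.0089 and -0.019. The step stayed after median centring (0.22 and -0.14) and with a pseudocount of 50 (0.15 and -0.036). On the deposited scale the median over places 11 to 20 was 0.0036, with 111 of 320 higher and 101 lower. The array does not hold every annotated gene. The outermost protein-coding gene of the RefSeq annotation was on the array for 12 arms, and the first ORF measured on an arm was at most the 7th annotated gene, on chromosome XIV left. When ORFs were ranked in the RefSeq order, 53 of 69 in its places 1 to 5 rose and 2 fell (median 0.68), 67 of 113 in places 6 to 10 rose and 21 fell (median 0.37), and 44 of 80 further in rose and 19 fell (median 0.35).

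Brightness moved with place. In places 1 to 5 the median signal was 70.4 in H4R45H and 39.7 in wild type, and 68 of 119 ORFs lay in the dimmest 25% of probe sets, with mean signals up to 79.9. In places 6 to 10 the medians were 139.6 in H4R45H and 113 in wild type, and 47 of 143 ORFs lay in that class. On the deposited scale dim probe sets tended to be higher in H4R45H across the genome, so classes of like brightness were compared. Of the 1188 genes from place 11 inward in the dimmest 25%, 667 were higher and 97 lower (median 0.37) on that scale, while 297 were higher and 459 lower (median -0.14) after quantile normalization and 327 higher and 394 lower (median -0.072) after cyclic loess. In the dimmest 25% 75% of the ORFs of places 1 to 5 and 74.5% of those of places 6 to 10 rose, against 56.1% of 1188 genes from place 11 inward. In the brightest 25%, with mean signals above 317.2, 8 of 14 rose in places 1 to 5 (57.1%) and 13 of 30 in places 6 to 10 (43.3%), against 18.2% of 1320 genes from place 11 inward. Both classes of places thus had a larger share of rises than inner genes in every brightness class, and they differed from each other by under 1 percentage point in the dimmest one. The same held against inner genes after quantile normalization, where the shares in the dimmest 25% were 50%, 36.2% and 25% and in the brightest 64.3%, 53.3% and 24.85%. The part of brightness in the place difference was not tested further.

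**Figure D2:**
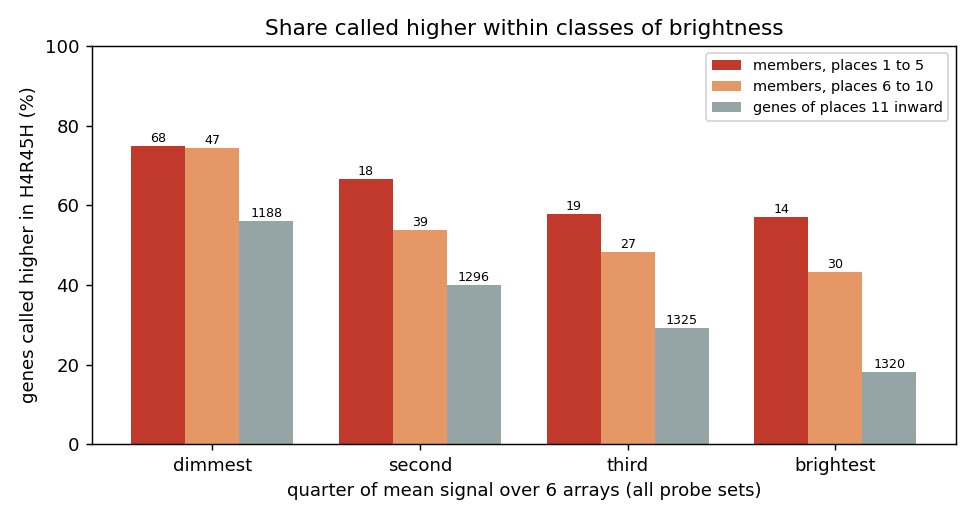
Percentage of genes called higher in H4R45H (vertical axis) in each of 4 equal classes of mean signal (horizontal axis), for members in places 1 to 5, members in places 6 to 10 and genes from place 11 inward, with the number of genes above each bar. The share is 75%, 74.5% and 56.1% in the dimmest 25% and 57.1%, 43.3% and 18.2% in the brightest.

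Transporters of the plasma membrane and vacuole formed a large group with a known role. Of 27 among the ORFs, 18 rose, 8 fell and 1 did not pass, with a median of 1.01. That is 66.7% higher and 29.6% lower, beside 62.6% and 16.03% of all 262 ORFs and 37.1% and 29.1% of all genes. MCH2 (YKL221W, chromosome XI left, place 2), which resembles monocarboxylate carriers, had signals of 61.8, 67.7 and 77.5 in H4R45H, against 6.9, 8.5 and 10.3 in wild type (log2 difference 3.02, SE 0.16, adjusted p = 1.3e-07). Every H4R45H array lay far above every wild-type array, although both strains were dim. JEN1 (YKL217W, same arm, place 6), the lactate and pyruvate transporter, had 142.9, 138.1 and 145.1 in H4R45H, against 25.3, 26.5 and 26.5 in wild type (2.44, SE 0.07, adjusted p = 1.3e-08). GEX1 (YCL073C, chromosome III left, place 1), a glutathione exchanger, had 90.0, 96.6 and 111.0 in H4R45H, against 16.9, 26.4 and 25.7 in wild type (2.13, adjusted p = 1.6e-06), read from a shared probe set. The strains were clearly apart for all 3 genes.

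Exporters were among the transporters that rose. PCA1 (YBR295W, chromosome II right, place 8), a P-type ATPase that exports cadmium, averaged 362 ± 22.9 in H4R45H and 117 ± 9.33 in wild type (SD, n = 3 each; 1.63, adjusted p = 7.2e-08). PDR18 (YNR070W, chromosome XIV right, place 6), an ABC transporter of the drug resistance family, averaged 50.2 ± 1.21 in H4R45H and 12.8 ± 1.54 in wild type (SD, n = 3 each; 1.98, adjusted p = 3.3e-07). The glycerol symporter STL1 (1.76), the protoporphyrin transporter PUG1 (1.62), the putative permease SEO1 (1.54) and the ABC protein NFT1 (1.52) rose as well, each at a wild-type mean below 30 units. ZRT1, the high-affinity zinc transporter, averaged 623 ± 49.5 in H4R45H and 403 ± 5.06 in wild type (SD, n = 3 each; 0.63, adjusted p = 1.2e-05).

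Fewer transporters fell. Among the 4 siderophore carriers, which import iron bound to fungal or bacterial chelators, 3 fell and 1 rose. SIT1 (YEL065W, chromosome V left, place 10) had 248.6, 241.1 and 217.6 in H4R45H, against 404.9, 422.9 and 376.9 in wild type (-0.77, SE 0.07, adjusted p = 6.0e-06). ENB1 fell by 0.63 and ARN1 by 0.34 on the log2 scale. ARN2 (YHL047C, chromosome VIII left, place 3) had 243.4, 241.0 and 250.1 in H4R45H, against 90.7, 104.5 and 89.3 in wild type (1.37, SE 0.07, adjusted p = 1.9e-07). ARN1 and ARN2 lie on the same arm at places 6 and 3, and their differences had opposite signs. FRE2, a ferric reductase of the cell surface, rose (0.96, adjusted p = 4.5e-05).

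**Figure D3:**
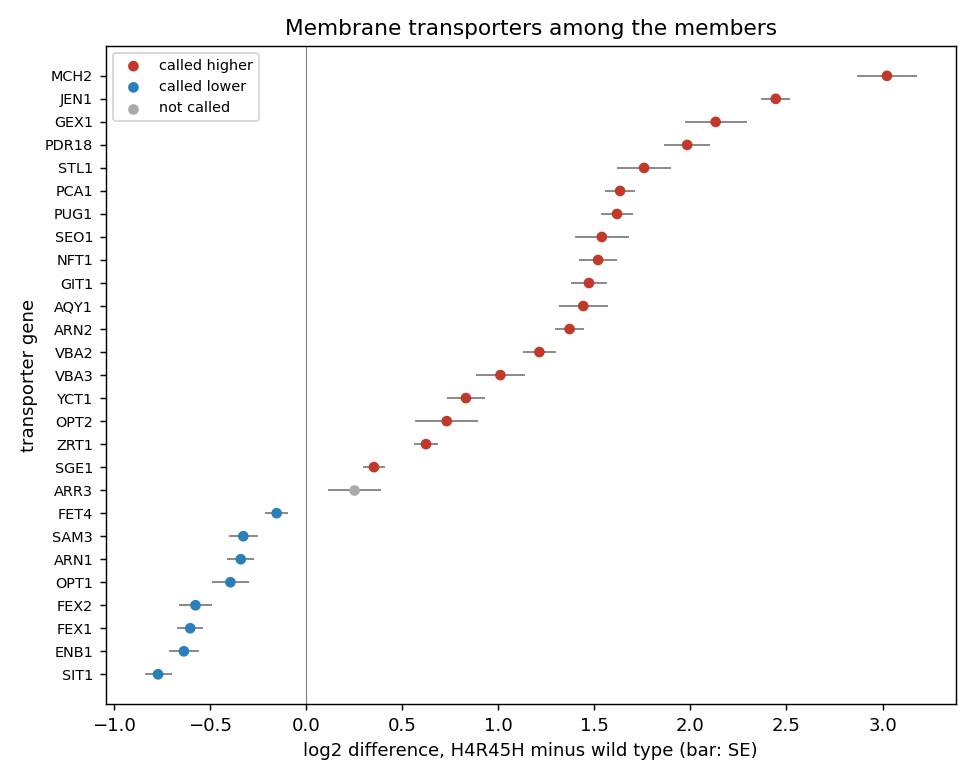
Log2 difference between strains (horizontal axis, bars are SE) of the 27 membrane transporter genes among the ORFs (vertical axis, sorted). Values run between -0.77 for SIT1 and 3.02 for MCH2, with 18 called higher, 8 called lower and ARR3 not called.

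The ends of chromosome XV right and XVI left carry related genes, which allowed matched copies to be read. FEX1 (YOR390W, XV right, place 3) and FEX2 (YPL279C, XVI left, place 1) encode the fluoride exporters. FEX1 had 100.7, 94.1 and 92.2 in H4R45H, against 149.6, 138.9 and 147.0 in wild type (-0.60, adjusted p = 2.9e-05). FEX2 had 67.9, 67.6 and 58.9 in H4R45H, against 98.4, 89.9 and 100.9 in wild type (-0.57, adjusted p = 1.8e-04). Both copies were lower on every H4R45H array. Their neighbours went the other way. YOR389W, next to FEX1, averaged 73.7 ± 5.74 in H4R45H and 29.1 ± 2.41 in wild type (SD, n = 3 each; 1.34, adjusted p = 1.3e-06). YPL278C, next to FEX2, averaged 285 ± 1.55 in H4R45H and 107 ± 6.25 in wild type (SD, n = 3 each; 1.42, adjusted p = 6.5e-08), and YPL277C beyond it rose by 1.45. The probe sets of FEX1, YPL278C and YPL277C are shared ones, so the copies are not cleanly separated.

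Enzymes of small molecules mostly rose. Of 36 on the list, 26 rose, 2 fell and 8 did not pass, with a median of 0.57. These shares, 72.2% higher and 5.56% lower, stand beside 62.6% and 16.03% of all 262 ORFs, whose median was 0.46. Among all genes they were 37.1% and 29.1%. ERR3 (YMR323W, chromosome XIII right, place 1), an enolase-related protein, had 139.4, 161.8 and 154.4 in H4R45H, against 32.8, 37.0 and 42.2 in wild type (2.03, SE 0.10, adjusted p = 1.1e-07). DSF1 (YEL070W, chromosome V left, place 7), which resembles mannitol dehydrogenase, had 118.5, 117.7 and 127.3 in H4R45H, against 29.5, 35.5 and 36.3 in wild type (1.85, adjusted p = 1.3e-07). DDI3 (YFL061W, chromosome VI left, place 6), a cyanamide hydratase, had 278.8, 260.4 and 310.6 in H4R45H, against 89.1, 102.7 and 67.0 in wild type (1.73, adjusted p = 2.0e-06). The arrays of the strains were well separated for these genes, and all were read from shared probe sets.

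HXK1, a hexokinase repressed by glucose, was uneven among replicates, with 439.9, 651.0 and 869.3 in H4R45H, against 240.6, 219.2 and 196.5 in wild type (1.53, SE 0.19, adjusted p = 5.5e-05). PCK1, the phosphoenolpyruvate carboxykinase of gluconeogenesis, averaged 169 ± 4.98 in H4R45H and 62.1 ± 7.82 in wild type (SD, n = 3 each; 1.46, adjusted p = 5.3e-07). GDH3, a glutamate dehydrogenase, rose by 1.38 and LYS1, the last enzyme of lysine synthesis, by 0.69, while invertase SUC2, outside the list, rose by 0.46. The largest fall on the enzyme list was that of URA1 (YKL216W, chromosome XI left, place 7), the dihydroorotate dehydrogenase of pyrimidine synthesis, with 731.4, 819.5 and 758.9 in H4R45H, against 1312, 1333 and 1273.1 in wild type (-0.76, SE 0.05, adjusted p = 7.8e-07).

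Proteins of detoxification and stress gave a similar picture, with 12 of 17 higher, 2 lower and a median of 0.54. These shares, 70.6% and 11.8%, lie near the 62.6% and 16.03% of all 262 ORFs, where 37.1% and 29.1% of all genes were called. After quantile normalization 9 were higher and 4 lower. On the deposited scale the falls were FEX1 and FEX2. GTT1 and GTT2, glutathione transferases on different chromosomes, rose by 0.82 (adjusted p = 4.2e-06) and 1.13 (adjusted p = 2.5e-05). HSP31, a methylglyoxalase of the DJ-1 family, averaged 651 ± 54.2 in H4R45H and 448 ± 34.2 in wild type (SD, n = 3 each; 0.54, adjusted p = 1.1e-04). The arsenic cluster at the end of chromosome XVI right was mixed, since ARR2 rose (0.67, but -0.17 with adjusted p = 0.23 after quantile normalization) while the transporter ARR3 (0.25, adjusted p = 0.13, but called lower at -0.65 with adjusted p = 0.0017 after quantile normalization) and the regulator ARR1 (-0.085, adjusted p = 0.45) did not pass.

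ORFs of the Y-prime element, the repeat next to many telomeres, were measured through 8 probe sets, all of them shared ones. Of these 7 rose and 0 fell, with a median of 0.63, and 5 were called higher after quantile normalization. Of all 262 ORFs 62.6% rose and 16.03% fell, and of all genes 37.1% and 29.1%. On the left arm of chromosome II all 3 outermost ORFs belong to the element and were bright. YBL113C at place 1 had 951.9, 1033.7 and 1023.8 in H4R45H, against 830.0, 865.0 and 826.7 in wild type (0.25, adjusted p = 0.0010). YBL112C at place 2 had 478.3, 493.5 and 648.3 in H4R45H, against 380.8, 386.0 and 329.1 in wild type (0.55, adjusted p = 0.0012). YBL111C at place 3 had 251.8, 261.6 and 347.3 in H4R45H, against 183.8, 183.2 and 165.1 in wild type (0.68, adjusted p = 3.4e-04). Each was higher on all H4R45H arrays, and H4R45H replicate 3 was the highest of its strain for YBL112C and YBL111C. YFL065C rose by 0.79 (adjusted p = 1.1e-04), and YLR462W had 17.9, 14.6 and 24.9 in H4R45H, against 5.9, 7.2 and 7.7 in wild type (1.44, adjusted p = 1.6e-04).

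The silent mating cassettes HML and HMR, the classic targets of Sir silencing, lie near the ends of chromosome III and carry the same genes as the active MAT locus. HMLALPHA1 was near the bottom of the scale, with 1.8, 1.9 and 0.6 in H4R45H, against 1.3, 1.2 and 0.6 in wild type (0.38, adjusted p = 0.64). No difference in this gene was detectable at these signals. HMRA1, at place 10, had 194.1, 188.8 and 160.6 in H4R45H, against 146.1, 138.2 and 193.8 in wild type, and the strains overlapped (0.20, adjusted p = 0.18; 0.35 with adjusted p = 0.011 without wild type replicate 3). HMRA2, at place 11 and so outside the set, had 168.1, 159.2 and 170.2 in H4R45H, against 117.5, 131.2 and 149.0 in wild type (0.33, adjusted p = 0.0068). Transcript from the cassette and from MAT cannot be told apart by these probe sets.

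Of 5 genes of meiosis and spore formation, 4 rose and RMD8 did not pass (-0.12, adjusted p = 0.096), while after quantile normalization 2 were higher and 1 lower. Their signals ranged widely, with 3 of the 5 in the dimmest 25%. Among all 262 ORFs 62.6% rose and 16.03% fell, and among all genes 37.1% and 29.1%. DMC1 (YER179W, chromosome V right, place 10), the meiotic recombinase, had 88.2, 83.3 and 92.7 in H4R45H, against 30.0, 38.3 and 36.8 in wild type (1.34, SE 0.10, adjusted p = 2.0e-06). ISC10, needed for sporulation, rose by 0.41, and ADY3, a spindle pole protein of spore wall formation, by 0.65, a call lost after quantile normalization (0.18, adjusted p = 0.12). RMD6 had 34.8, 28.8 and 32.0 in H4R45H, against 21.4, 24.7 and 27.8 in wild type (0.38, adjusted p = 0.022), and was called lower after quantile normalization (-0.36, adjusted p = 0.013).

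The list of essential and housekeeping genes was a broad one. It also held the silencing genes SIR1 and RPD3, so its counts do not describe essential genes alone. Of its 24 genes in the outer 10 places, 10 rose, 7 fell and 7 did not pass, with a median of 0.086. These shares, 41.7% higher and 29.2% lower, lie near the 37.1% and 29.1% of all genes. MSC1 (YML128C, chromosome XIII left, place 4), linked to recombination between sister chromatids in meiosis, was the largest rise, with 414.5, 485.1 and 553.7 in H4R45H, against 125.2, 163.9 and 159.8 in wild type (1.70, SE 0.12, adjusted p = 1.0e-06). ERO1, which drives disulfide formation in the endoplasmic reticulum, averaged 558 ± 40.4 in H4R45H and 360 ± 15 in wild type (SD, n = 3 each; 0.63, adjusted p = 1.3e-05). SRO77, of vesicle traffic, rose by 0.69 and lost the call after quantile normalization (0.14, adjusted p = 0.32) and after cyclic loess (0.21, adjusted p = 0.11). The lists overlap in part with one another, and 159 of the ORFs were in none of them, 88 with a gene name (43 higher, 22 lower) and 71 with a systematic name only.

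ORFs known by systematic name only rose more often than those with a gene name. Of 79, 62 rose and 3 fell, with a median of 0.98, while of 183 ORFs with a gene name 102 rose and 39 fell, with a median of 0.32. From place 11 inward the shares that rose were 54.3% of 420 genes with a systematic name only and 33.6% of 4709 with a gene name. Brightness moved with this split too, with 58 of the 79 and 57 of the 183 in the dimmest 25%, where 75.9% and 73.7% rose. In the other 3 brightness classes 18 of 21 with a systematic name only rose. Of those with a gene name 25 of 48 rose in the second class, 17 of 38 in the third and 18 of 40 in the brightest. YAR068W (chromosome I right, place 2) had 333.3, 341.2 and 343.8 in H4R45H, against 99.2, 121.5 and 104.1 in wild type (1.65, SE 0.08, adjusted p = 7.7e-08). YEL073C (chromosome V left, place 4) had 130.9, 136.6 and 174.8 in H4R45H, against 28.6, 34.3 and 34.8 in wild type (2.17, SE 0.12, adjusted p = 2.1e-07). The strains did not overlap in either, and YEL073C had a wild-type mean of 32.6 units, in the range of the dimmest 25%.

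Most large rises came from dim ORFs. YOL162W (chromosome XV left, place 5), a putative permease, had 109.2, 93.1 and 128.8 in H4R45H, against 21.3, 23.9 and 21.6 in wild type (2.30, adjusted p = 1.3e-07), and YOL163W beside it rose by 1.90. YCR099C (chromosome III right, place 8) had 120.9, 111.3 and 137.6 in H4R45H, against 28.3, 25.6 and 27.1 in wild type (2.19, adjusted p = 5.6e-08). POT1 (YIL160C, chromosome IX left, place 7), the peroxisomal thiolase of fatty acid breakdown, had 115.1, 106.2 and 124.8 in H4R45H, against 19.8, 25.8 and 21.3 in wild type (2.38, adjusted p = 7.2e-08). Wild-type signals of these were all below 30 units. YHL048C-A had 18.9, 17.4 and 21.2 in H4R45H, against 3.6, 4.1 and 3.8 in wild type (2.32, adjusted p = 1.5e-06). YHR213W had 9.6, 9.1 and 10.7 in H4R45H, against 0.3, 4.6 and 3.2 in wild type (2.58, SE 0.81, adjusted p = 0.016), a call that was lost after cyclic loess (1.60, adjusted p = 0.092). With a pseudocount of 50 the difference was 1.02 for MCH2, 1.14 for YOL162W, 0.36 for YHL048C-A and 0.18 for YHR213W, so the fold of such ORFs depends on the floor of the signal. Of the 262 ORFs, 98 had both strain means below 79.9 units, and 34 crossed that level upward in H4R45H.

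**Figure D4:**
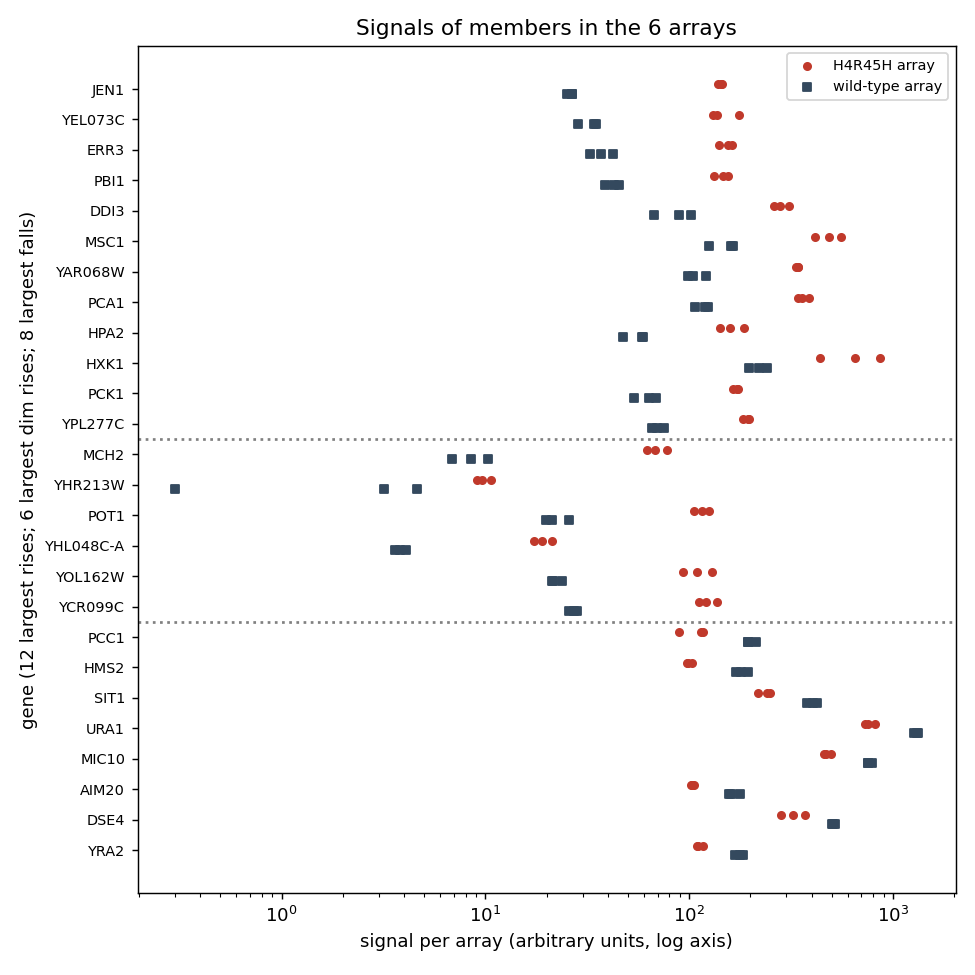
Signal of each array (horizontal log axis, arbitrary units) for the 12 largest rises, the 6 largest rises among dim ORFs and the 8 largest falls (vertical axis), with H4R45H arrays as red circles and wild-type arrays as dark squares. The strains do not overlap in any row, and JEN1 lies at 138.1 to 145.1 in H4R45H, against 25.3 to 26.5 in wild type.

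Among the larger rises were also PBI1 (1.77, adjusted p = 1.1e-07) and HPA2 (1.56, adjusted p = 1.3e-06), an acetyltransferase of the Gcn5-related family. Falls were smaller and lay further in. PCC1 (YKR095W-A, chromosome XI right, place 10), a subunit of the KEOPS complex that modifies tRNA, had 117.1, 114.4 and 89.4 in H4R45H, against 195.5, 194.7 and 212.1 in wild type (-0.92, SE 0.10, adjusted p = 2.1e-05). HMS2 (YJR147W, chromosome X right, place 10), which resembles heat shock factors, had 97.3, 103.8 and 99.3 in H4R45H, against 170.1, 194.5 and 180.2 in wild type (-0.86, adjusted p = 3.2e-06). MIC10 (YCL057C-A, chromosome III left, place 10), of the complex that shapes mitochondrial cristae, averaged 474 ± 18.6 in H4R45H and 768 ± 21.4 in wild type (SD, n = 3 each; -0.70, adjusted p = 1.4e-06). The 8 largest falls above the dimmest 25%, with AIM20 (-0.66), the daughter cell glucanase DSE4 (-0.66) and the RNA export factor YRA2 (-0.66) beside SIT1 and URA1, all sat in places 7 to 10.

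The arms differed. On the deposited scale the median of the ORFs was above 0 on 28 of the 32 arms, and it exceeded the median of the rest of the same arm on 27. More ORFs rose than fell on 29 arms, at least 1 rose on each of the 32, and none fell on 10. The median ran between -0.20 and 1.44 over arms, while that of the remaining genes of an arm ran between -0.10 and 0.28. Leaving out any single arm kept the median over all ORFs between 0.44 and 0.49. On the 31 arms with ORFs in both classes, places 1 to 5 had the higher median on 19 and places 6 to 10 on 12. After quantile normalization the medians of chromosomes III left (-0.24), XII right (-0.18) and XV right (-0.32) were below 0 as well. That of XV right was then below the -0.27 of X left.

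**Figure D5:**
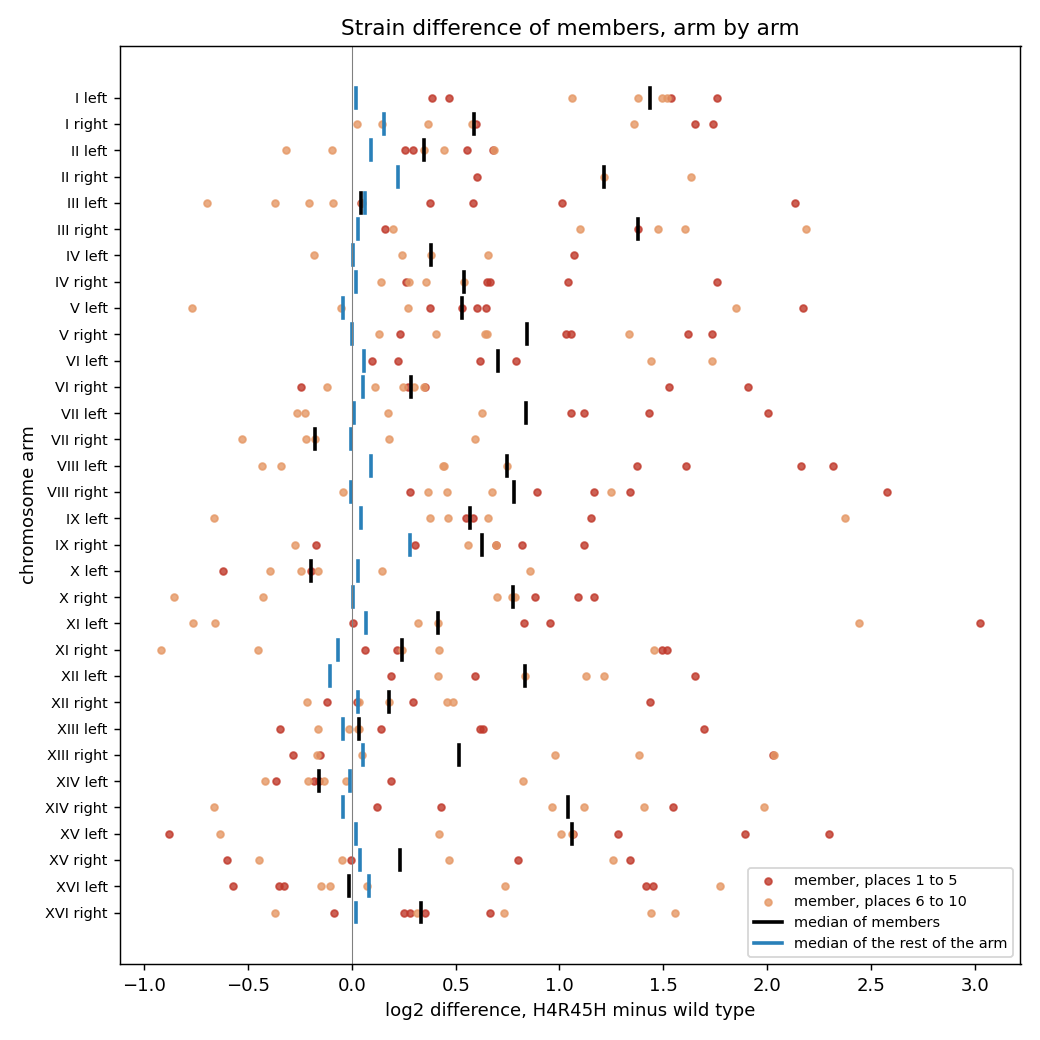
Log2 difference between strains (horizontal axis) of every ORF on each of the 32 chromosome arms (vertical axis), with places 1 to 5 in red and places 6 to 10 in orange, the median of the ORFs as a black bar and that of the rest of the arm as a blue bar. On the deposited scale the black bar lies right of 0 on 28 arms and of the blue bar on 27.

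On the deposited scale chromosome I left had the highest median among arms with at least 5 ORFs, 1.44 over 8 ORFs, of which 5 rose and 0 fell. The median signal of its ORFs was also the lowest of the 32 arms, 22.8 in H4R45H and 8.47 in wild type. YAL065C, at place 4, had 20.8, 22.7 and 22.4 in H4R45H, against 7.0, 6.7 and 5.8 in wild type (1.76, adjusted p = 3.4e-06), and SEO1 and YAL064W (1.52) rose with it. Chromosome X left had the lowest median on the deposited scale, -0.20 over 7 ORFs, of which 4 fell and 1 rose. YJL218W, at place 2, had 82.3, 95.2 and 103.9 in H4R45H, against 142.7, 139.6 and 148.3 in wild type (-0.62, adjusted p = 1.3e-04), and OPT1, a transporter of small peptides, fell by 0.39. The rise there was YJL213W (0.86, adjusted p = 6.3e-05). On this scale chromosome VII right (-0.18, 5 ORFs) and XIV left (-0.16, 9 ORFs) were the other arms where more ORFs fell than rose. None of the 5 ORFs on VII right lies in places 1 to 5. After quantile normalization VII right had 2 higher and 1 lower (median -0.03). Chromosomes III left, XII right and XV right then had 2 higher and 3 lower each.

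Neighbours often differed. Of 199 pairs of ORFs in consecutive places, both rose in 81, both fell in 6, and 1 rose while the other fell in 37. Of all 262 ORFs taken singly 62.6% rose and 16.03% fell. Whether these pair counts depart from those of unrelated ORFs with such shares was not tested. Across these pairs, which share arms and arrays, the differences of outer and inner ORF had a Pearson r of 0.25 and a Spearman rho of 0.27. The widest gap was on chromosome XI left, where JEN1 (2.44) stands beside URA1 (-0.76) on its inner side and SRY1 (0.0077, adjusted p = 0.94) on its outer side. On chromosome XIII right YMR315W-A (2.03, adjusted p = 6.5e-05), with H4R45H signals of at most 18.5, stands beside YMR315W, with 229.1, 233.9 and 253.6 in H4R45H, against 287.2, 256.1 and 260.7 in wild type (-0.17, adjusted p = 0.053). In contrast, 9 of 10 ORFs rose on chromosome V right and 8 of 9 on chromosome IV right, with 0 falls on both arms.

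Over all brightness classes together the direction of transcription made a small difference to the counts. Of 138 ORFs transcribed toward the chromosome end 90 rose and 18 fell (median 0.50), and of 124 transcribed away from it 74 rose and 24 fell (median 0.45). The gap varied with brightness. In the dimmest 25% 77.8% rose toward the end and 72.1% away from it. In the second class the order was reversed, with 55.9% and 60.9%. In the third class the shares were 57.1% and 44.4%. In the brightest 25% the gap was wider. Toward the end 13 of 22 rose and 3 fell (median 0.26), and away from it 8 of 22 rose and 12 fell (median -0.19). From place 11 inward the shares that rose were 35.8% and 34.8%. The difference was not tested.

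The ORFs left out as families stood higher than those kept. Of these 58, 47 rose and 6 fell, with a median of 0.92, and 24 were read from shared probe sets, against 28 of the 262 kept. Among the 262 the 28 read from such sets had 23 rises (median 0.66), and the 234 read from sets for a single transcript had 141 rises and 40 falls (median 0.42). The rises of the kept ORFs were therefore not limited to shared probe sets.

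Genes of the silencing machinery moved in both directions. Of 30 measured, 7 rose (23.3%) and 9 fell (30.0%), with a median of -0.05, where 37.1% of all genes rose and 29.1% fell. The share that fell was thus near that of all genes. After quantile normalization 2 were higher and 18 lower, where 26.9% of all genes were higher and 36.8% lower. RAP1, the telomere-binding factor, averaged 99.1 ± 8.62 in H4R45H and 166 ± 1.1 in wild type (SD, n = 3 each; -0.75, adjusted p = 1.3e-05), and SIR2 fell by 0.48 (adjusted p = 8.2e-05). YKU70, a subunit of Ku, averaged 100.3 ± 12.1 in H4R45H and 59.5 ± 7.92 in wild type (SD, n = 3 each; 0.75, adjusted p = 2.3e-04), and HDA2 of the Hda1 complex rose by 0.57 (adjusted p = 2.1e-05). The list also holds members of the outermost set. RIF2, a telomere length regulator at place 9 on chromosome XII right, was dim at 14.8 ± 0.902 in H4R45H and 10.6 ± 0.7 in wild type (SD, n = 3 each; 0.49, adjusted p = 0.011), and turned to -0.43 after quantile normalization. SIR1, a silencing protein of the mating cassettes at place 4 on XI right, was called at 0.22 (adjusted p = 0.029) and turned to -0.23 after quantile normalization. RPD3, a histone deacetylase at place 2 on XIV left, was called at -0.18 (adjusted p = 0.013), and lost the call after cyclic loess (adjusted p = 0.075) and without wild type replicate 1 (adjusted p = 0.052).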

How the data were processed

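RNA of 3 H4R45H and 3 wild-type samples was measured, grouped by the labels; about 20 µg of total RNA was labelled with biotin. The authors deposited a linear intensity for each probe set, made with MAS5 per the submitters' processing notes; its version, scaling target and detection calls are not given in the sources used here. Probe sets were named by platform annotation and RefSeq table (assembly R64), which paired 5498 of 5716 with 1 gene, 0 with several and 218 with none. RefSeq served for names and gene order only; adjacent pairs of the ORFs were in the same order in 230 of 230. A gene was read from its probe set of highest mean log2 signal. Signals were taken as log2 without further scaling, and 7 values at 0 were set to 0.1. limma 3.58.1 in R 4.3.3 (lmFit, eBayes with trend, two-sided, Benjamini-Hochberg over all probe sets) gave differences, SE and adjusted p. The fit was checked on simulated data. Same-numbered arrays did not deviate together (r of -0.034 to 0.027), so no block was used. The ORFs and lists were chosen with earlier results of these data known, so lists are given as counts and medians without a test of their own. Genes named are the 12 largest rises, the 8 largest falls and the 6 largest dim rises whose strains do not overlap, up to 3 per role list or extreme arm and 4 silencing factors, the mating cassettes and the widest neighbour gaps. Other genes named were chosen after their values were seen. Promoter and protein sequences were not used here, so the planned naming of near-identical proteins was not run.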

Additional observations from a re-analysis of the deposited data

How the results depend on the processing

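The 164 rises and 42 falls kept within 1.5 times under quantile normalization, median centring, cyclic loess, a pseudocount of 50, no variance trend, averaging a gene's probe sets, leaving out shared probe sets and either way of counting families. Leaving out each array gave 155 to 165 rises and 34 to 40 falls, medians of 0.42 to 0.50, and 0.23 to 0.35 for places 1 to 5 minus 6 to 10. Same-numbered arrays share only a number; with the replicate block 163 rose and 38 fell. Without the dimmest 25% of probe sets, which keeps 147 of the ORFs, 78 rose, the median was 0.24 and the place difference 0.14. A minimum of 1.5-fold left 11 falls, and one of 2-fold 78 rises and 0 falls. The median moved to 0.25 after cyclic loess, 0.36 after median centring, 0.19 after quantile normalization, 0.24 with a pseudocount of 50 (place difference 0.072) and 0.58 with families included. In the RefSeq order, chosen after seeing the data, it was 0.60 with 23 falls, over fewer ORFs. Of 89 genes named, 73 kept direction and call under 13 alternatives. Signs turned for HMLALPHA1 (-0.57 quantile, -0.82 loess), RIF2 (-0.43 and -0.27), SIR1 (-0.23 and -0.14), RMD6 (-0.36 and -0.23), ARR3 (-0.65 and -0.44), ARR2 (-0.17 quantile), ARR1 (-0.18 to 0.011 without single arrays) and SRY1 (-0.26, -0.20, -0.095 centred, and -0.049 to 0.063 without single arrays, with -0.026 without wild type replicate 2). Where not given, the cause was not tested.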
